A study of Mus musculus with 13 samples.

Results

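Cells copy and repair their DNA with shared machinery, and T cells that divide every few hours after meeting antigen depend on it. The 41 genes described here encode the DNA damage response of the mouse. They cover homologous recombination (17 genes), the Fanconi pathway (7), mismatch repair (2), end joining (5), checkpoint signalling with p53 and its regulator (8), and a pair of base excision and PARP genes. They were chosen by name with earlier results of these data known, so the counts below are not an independent test of the set. Each gene was read from the probe set that the platform annotation gives to it alone. Where there were several, the one of highest mean over 13 arrays was taken. Of the 41, 36 had such a probe set, of 22180 genes on the arrays. Xrcc2, Rbbp8 and Trp53 had no named probe set, and the probe sets of Rad54b and Fanca carried a second symbol as well, so these 5 genes were not analysed here. A gene was tested where at least 4 arrays lay above 4.31, the median of all log2 values, which kept 35 members of the 12710 genes tested. The member left out by this floor was Fancb, a subunit of the Fanconi core complex, with values from 2.65 to 3.76 over all arrays.

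Homologous recombination rebuilds a broken chromosome from the sister copy, so it works after replication has begun. The Fanconi pathway unhooks crosslinked strands at stalled forks and hands the break to recombination, mismatch repair corrects copying errors, and end joining reseals broken ends at any stage of the cycle. The checkpoint kinases ATM and ATR sense breaks and stalled forks and hold the cycle through CHK1, CHK2 and p53. Many genes of recombination and of the ATR branch are transcribed mainly in cells that replicate their DNA, under E2F factors.

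The cells were donor CD4+ T cells taken in an acute graft-versus-host reaction. C57Bl/6 splenocytes were injected into B6D2F1 hosts, with mice of both strains 10 to 12 weeks old, and divisions were read from dilution of the dye CFSE. On day 3 (72 hr), CD4+ cells with at least 2 divisions were sorted from spleen and lymph node. All 3 groups share the transfer, and the compounds were injected into the peritoneum of the host. Vehicle (4 arrays) was given on days 0 to 2, TCDD (4 arrays), the prototype dioxin ligand of the aryl hydrocarbon receptor, as 1 dose of 15 µg/kg on day 0, and Cl-BBQ (5 arrays), another ligand of that receptor, at 10 mg/kg on each of 3 days. The ligands thus differed in dose and schedule, and TCDD also differed from vehicle in the number of injections. The labels call the arrays biological replicates and give 4 to 5 mice a group, without tying an array to a mouse. Expression is given as log2 values of Affymetrix arrays.

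The arrays were alike in their overall distribution, with medians between 4.27 and 4.33 and correlations between 0.943 and 0.976. The sorted cells carried T cell markers, with the mean of Cd3e, Cd3g, Cd3d, Cd4, Cd5 and Cd28 between 10.92 and 11.27 on all arrays. Markers of myeloid cells (7 genes) had a mean of 4.17 to 4.38 with vehicle, 3.71 to 3.93 with TCDD and 3.55 to 4.02 with Cl-BBQ, and 5 of the 7 had a mean below the floor. Among them Lyz2 had group means of 3.13 or less and Cd14 of 2.94 or less, while Cybb fell from 6.58 to 4.44 and 4.11. Of the 6 B cell markers measured, Cd22 fell with both ligands (6.17 to 4.03 and 4.10), Ms4a1 lay at 2.69 or less in each group mean, and Cd79b, Cd79a and Pax5 were not called. Cd79b had a mean of 4.69 over the vehicle arrays, 4.79 over TCDD and 5.33 over Cl-BBQ, and the mean of the B cell list was 4.26 to 4.53, 3.93 to 4.18 and 4.03 to 4.24. The mean of the CD8 T cell markers Cd8a and Cd8b1 was 5.28 to 5.55 with vehicle, 5.34 to 6.01 with TCDD and 5.66 to 6.12 with Cl-BBQ, so that the Cl-BBQ arrays lay above the vehicle arrays, though neither gene was called (limma, smallest adjusted p = 0.15). The mean of the 3 NK cell markers was 4.22 to 4.40, 4.09 to 4.45 and 3.99 to 4.37, with 0 called (limma, smallest adjusted p = 0.07). The part of these markers in the results below was not tested.

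Promoter windows of 6 members are shown, chosen in part by the E2F-type motifs marked in them. They are the 4 members called with both ligands that held a match, Clspn, the member of smallest adjusted p, and Xrcc4. The last is an end-joining gene with a match that was not called. Of the 36 members, 31 had a promoter window in RefSeq (GRCm38.p6, 250 bases before to 50 after the annotated start). Exo1, Nbn, Rad50, Fancd2 and Prkdc had none. Capitals mark matches to the E2F-type motifs TTCCCGC and TTGGCGC, searched on both strands, and the sequences read 5′ to 3′ on the strand of the gene.
Brca1, chr11:101551906-101552205, minus strand: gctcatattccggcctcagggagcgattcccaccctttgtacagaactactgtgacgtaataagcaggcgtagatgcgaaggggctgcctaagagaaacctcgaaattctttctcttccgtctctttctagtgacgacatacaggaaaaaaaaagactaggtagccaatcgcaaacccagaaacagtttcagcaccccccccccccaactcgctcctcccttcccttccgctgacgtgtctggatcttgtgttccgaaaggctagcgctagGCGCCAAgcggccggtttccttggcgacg
Rad51ap1, chr6:126939538-126939837, minus strand: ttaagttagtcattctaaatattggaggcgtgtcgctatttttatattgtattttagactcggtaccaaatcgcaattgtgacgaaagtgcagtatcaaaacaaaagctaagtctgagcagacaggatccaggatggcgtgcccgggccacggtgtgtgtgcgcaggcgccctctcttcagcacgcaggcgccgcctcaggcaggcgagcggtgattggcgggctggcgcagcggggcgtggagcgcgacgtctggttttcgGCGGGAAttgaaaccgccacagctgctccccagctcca
Msh6, chr17:87974800-87975099, plus strand: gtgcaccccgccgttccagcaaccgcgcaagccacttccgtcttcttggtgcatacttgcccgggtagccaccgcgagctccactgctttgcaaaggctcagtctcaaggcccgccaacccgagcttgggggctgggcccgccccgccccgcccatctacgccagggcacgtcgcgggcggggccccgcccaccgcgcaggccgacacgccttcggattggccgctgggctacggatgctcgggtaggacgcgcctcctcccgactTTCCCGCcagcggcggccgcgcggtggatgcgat
Chek1, chr9:36726609-36726908, minus strand: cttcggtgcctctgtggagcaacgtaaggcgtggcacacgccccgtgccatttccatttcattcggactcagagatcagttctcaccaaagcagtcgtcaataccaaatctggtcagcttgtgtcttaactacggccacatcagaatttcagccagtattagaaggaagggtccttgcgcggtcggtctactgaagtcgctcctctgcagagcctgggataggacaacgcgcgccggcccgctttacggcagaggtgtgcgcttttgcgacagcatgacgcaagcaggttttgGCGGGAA
Clspn, chr4:126556730-126557029, plus strand: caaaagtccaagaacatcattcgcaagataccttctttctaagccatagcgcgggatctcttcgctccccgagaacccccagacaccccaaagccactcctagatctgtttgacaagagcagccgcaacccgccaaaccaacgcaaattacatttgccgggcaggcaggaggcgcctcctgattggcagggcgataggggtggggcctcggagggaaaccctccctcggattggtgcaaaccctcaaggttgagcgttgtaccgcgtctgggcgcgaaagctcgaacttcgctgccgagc
Xrcc4, chr13:90089559-90089858, minus strand: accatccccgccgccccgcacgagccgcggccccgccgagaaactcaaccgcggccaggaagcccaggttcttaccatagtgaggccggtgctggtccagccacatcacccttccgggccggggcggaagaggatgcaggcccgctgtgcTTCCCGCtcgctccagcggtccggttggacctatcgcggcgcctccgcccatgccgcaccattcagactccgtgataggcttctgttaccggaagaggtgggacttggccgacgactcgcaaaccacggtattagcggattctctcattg

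Of 8 members with a window that were called with both ligands, 4 held a match, and these are the first 4 windows, with 1 match each. Blm, Brip1, Parp1 and Clspn held none. In these 4 the match began 12 to 43 bases after the annotated start, at base 21 in Brca1, 12 in Rad51ap1, 16 in Msh6 and 43 in Chek1. Clspn, which had the smallest adjusted p of all members, had no match in this window. Xrcc4, an end-joining gene which was called with neither ligand, held a match that began at position -100. Over all members with a window, 15 of 31 (48.4%) held a match, against 7.8% of 27025 genes with a window and 13.2% of the 9958 tested genes with one. A match was present in 8 of 15 members called in at least 1 comparison with vehicle and in 6 of 15 that were tested and called in neither. The motif GCGTG, the core bound by the aryl hydrocarbon receptor complex, was found on either strand in 18 of 31 members (58.1%) and in 53% of tested genes. The cell cycle element TTTGAA was in Bard1 and Rad51b (6.5% of members, 14.1% of tested genes). The E2F and receptor motifs share letters and can overlap. A match describes these letters and is not a measured binding site.

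The first comparison, TCDD against vehicle, asked which repair genes differed in the dividing donor cells. The recombination genes Brca1, Rad51ap1, Exo1, Blm and Nbn, the Fanconi helicase gene Brip1, the checkpoint genes Clspn, Chek1 and Atr, Msh6 and Parp1 fell by 1.29- to 2.34-fold, and no member rose. Of 35 tested members 11 were called lower, while 3.5% of all 12710 tested genes were, and 0 were called higher, against 3.21% of all genes (limma, Benjamini-Hochberg adjusted p under 0.05). At an unadjusted p under 0.05, 25 members were lower and 1, Pms2, was higher. The median change of the members was -0.46 on the log2 scale and that of all tested genes 0.00. For 18 members every TCDD array lay below every vehicle array, which held for 7.28% of all genes. Values are from sorted bulk samples, in which fewer cells expressing a gene and less RNA per cell cannot be told apart.

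Cl-BBQ was compared with vehicle for the same question with the other ligand. With Cl-BBQ, 17 of the 35 members were lower by 1.32- to 2.62-fold, among them Brca2, Bard1, Rad54l, Fancd2, Fanci, Atm and Ung, which were not called with TCDD. In all tested genes 6.03% were called lower, and 5.31% higher. No member was called higher (0 of 35 by limma, with 24 lower and 0 higher at an unadjusted p under 0.05). The median change was -0.54 for the members and -0.01 for all genes. Every Cl-BBQ array lay below every vehicle array for 18 members, against 6.8% of all genes. Both comparisons use the same 4 vehicle arrays, so they are not independent of each other. Altogether 10 members were called with both ligands (Blm, Brca1, Brip1, Chek1, Clspn, Exo1, Msh6, Nbn, Parp1 and Rad51ap1), 1 with TCDD alone (Atr), 7 with Cl-BBQ alone and 17 with neither. None of those called with 1 ligand alone was called in Cl-BBQ against TCDD (limma, smallest adjusted p = 0.78, for Fanci). These counts follow from the threshold and do not show a difference between the ligands.

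**Figure D1:**
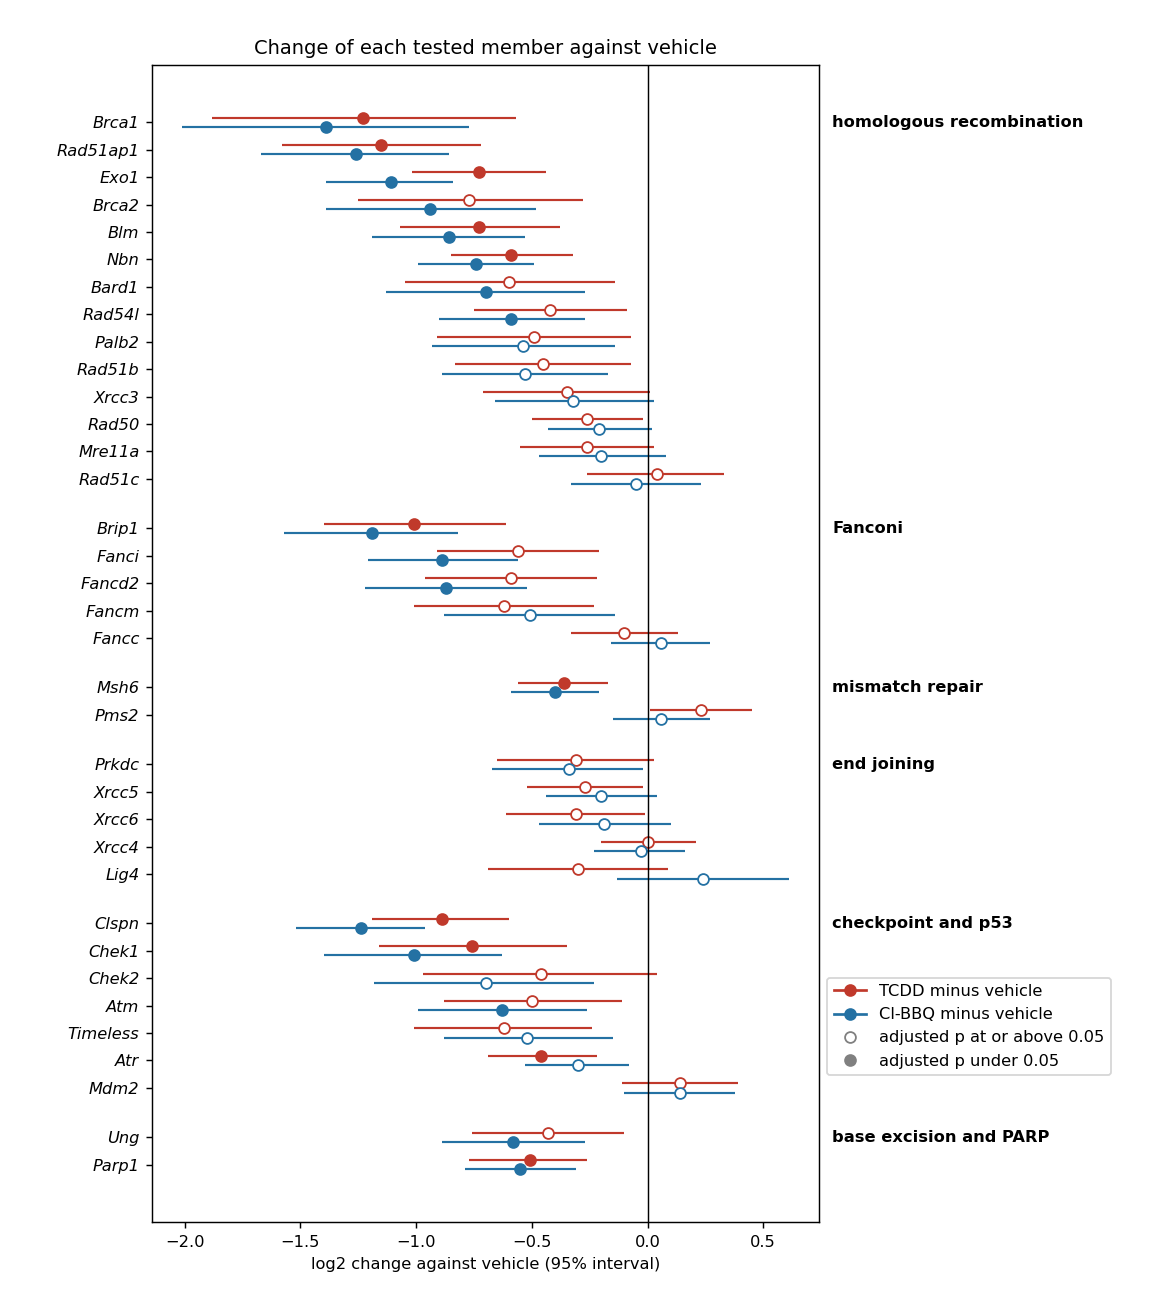
Log2 change of each of the 35 tested members against vehicle, grouped by role, for TCDD (red) and Cl-BBQ (blue). Lines are 95% intervals and filled points have an adjusted p under 0.05; the changes run from -1.39 for Brca1 to 0.24 for Lig4, all filled points lie left of 0, and no end-joining gene is filled.

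In homologous recombination, 5 of 14 tested members fell with TCDD and 8 with Cl-BBQ, with median changes of -0.54 and -0.65. The shares of all tested genes called lower were 3.5% and 6.03%. Brca1 encodes the ubiquitin ligase that steers broken ends to recombination. Its vehicle arrays read 6.04, 6.02, 5.62 and 5.60, its TCDD arrays 5.11, 3.46, 4.76 and 5.04, and its Cl-BBQ arrays 4.12, 4.79, 4.89, 4.22 and 4.14. The vehicle arrays were the highest 4 of the 13, and TCDD replicate 2 was the lowest. That array and the Cl-BBQ arrays at 4.12, 4.22 and 4.14 lay below the floor. The log2 change was -1.23 ± 0.31 (SE) with TCDD (limma, adjusted p = 0.024) and -1.39 ± 0.29 with Cl-BBQ (limma, adjusted p = 0.0047). The TCDD call was lost without vehicle replicate 1 or 2, with an adjusted p of up to 0.072.

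Rad51ap1 encodes a protein that acts in homologous recombination. It read 7.32, 6.45, 6.43 and 6.52 with vehicle, 5.66, 5.55, 5.35 and 5.56 with TCDD, and 5.06, 5.74, 5.30, 5.22 and 5.75 with Cl-BBQ. No treated array reached the lowest vehicle array, and vehicle replicate 1 stood above the rest of its group. The falls were 2.22-fold and 2.40-fold (limma, adjusted p = 0.002 and 3.3e-04), and without that array the log2 changes were -0.94 and -1.05, both called.

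Exo1 encodes an exonuclease that trims broken ends and also serves mismatch repair. Its values were 6.29, 6.00, 6.29 and 5.97 with vehicle, 5.45, 5.11, 5.57 and 5.51 with TCDD, and 5.07, 4.96, 5.24, 5.15 and 4.72 with Cl-BBQ. The vehicle arrays stood apart from all treated arrays, and the ligand groups overlapped. The log2 change was -0.73 ± 0.13 (SE) with TCDD and -1.11 ± 0.13 with Cl-BBQ (limma, adjusted p = 0.0033 and 3.1e-05).

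Brca2 encodes a tumour suppressor that is needed for homologous recombination. It read 5.83, 5.38, 6.16 and 4.82 with vehicle, 4.65, 4.74, 4.57 and 5.17 with TCDD, and 4.53, 4.62, 4.78, 4.44 and 4.69 with Cl-BBQ. Vehicle replicate 4 lay inside the TCDD range but above all Cl-BBQ arrays. With Cl-BBQ it fell by 0.94 ± 0.21 (SE) on the log2 scale (limma, adjusted p = 0.0088), and with TCDD the change of -0.77 ± 0.22 did not pass (limma, adjusted p = 0.058). The Cl-BBQ call was lost without both vehicle replicate 3 and Cl-BBQ replicate 1 (adjusted p = 0.05).

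The other recombination genes that fell were Blm, a helicase that takes apart recombination intermediates, Nbn, the regulatory subunit of the MRE11 complex, Bard1, the partner of BRCA1, and Rad54l, a motor protein of strand exchange. Blm changed by -0.73 with TCDD and -0.86 with Cl-BBQ (log2), and Nbn by -0.59 and -0.74, all called (limma, largest adjusted p = 0.013). Bard1 (-0.70) and Rad54l (-0.59) were called with Cl-BBQ (limma, adjusted p = 0.035 and 0.016). Rad54l lost its call without vehicle replicate 1 (adjusted p = 0.061), and Bard1 when any of 7 arrays was removed in turn (highest adjusted p 0.12, for vehicle replicate 1).

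The partners of Nbn in the MRE11 complex, which holds broken ends and activates ATM, did not pass the test. Mre11a, the nuclease, showed -0.26 ± 0.14 (SE) with TCDD and -0.20 ± 0.13 with Cl-BBQ, and Rad50, the tether, by -0.26 ± 0.11 and -0.21 ± 0.11. The adjusted p of these changes ran from 0.22 to 0.42 (limma), and whether Nbn changed more than its partners was not tested.

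The recombination genes Rad51b, Rad51c, Xrcc3 and Palb2 were called with neither ligand. Rad51c read 5.12, 5.11, 4.98 and 5.39 with vehicle, 4.97, 5.22, 5.48 and 5.08 with TCDD, and 5.19, 4.74, 5.18, 5.21 and 5.19 with Cl-BBQ. The 3 groups overlapped, with a 95% interval of -0.26 to 0.33 for the TCDD change and of -0.33 to 0.23 for Cl-BBQ. Rad51b (-0.45 and -0.53), Xrcc3 (-0.35 and -0.32) and Palb2 (-0.49 and -0.54), which bridges BRCA1 and BRCA2, did not pass with TCDD or Cl-BBQ (limma, adjusted p from 0.06 to 0.3). The mean of Palb2 was below the floor in both ligand groups, at 4.18 and 4.13.

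In the Fanconi group, 1 of 5 tested members fell with TCDD and 3 with Cl-BBQ, with medians of -0.59 and -0.87. The shares of all tested genes called lower were 3.5% and 6.03%. In a list this short, the count of 1 with TCDD does not set the group apart from all genes. Brip1, a helicase that binds BRCA1, read 6.35, 5.98, 5.43 and 5.72 with vehicle, 5.01, 4.86, 4.90 and 4.67 with TCDD, and 4.82, 4.32, 4.42, 4.92 and 4.90 with Cl-BBQ. All 9 treated arrays lay below the lowest vehicle array. The fall was 2.01-fold with TCDD and 2.28-fold with Cl-BBQ (limma, adjusted p = 0.0031 and 2.9e-04).

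Fancd2 and Fanci encode the clamp that is ubiquitinated at crosslinks. With Cl-BBQ they fell by 0.87 ± 0.16 (SE) and 0.89 ± 0.15 on the log2 scale (limma, adjusted p = 0.002 and 0.0011). With TCDD their changes of -0.59 and -0.56 missed the threshold (limma, adjusted p = 0.057 and 0.054). Every TCDD array lay below every vehicle array for both genes, as it did for 7.28% of all tested genes. Fancm, a translocase that remodels forks, showed -0.62 with TCDD and -0.51 with Cl-BBQ, which did not pass (limma, adjusted p = 0.057 and 0.074). With TCDD these 3 genes lay close to the threshold, and of 22 alternative settings Fanci passed in 8 and Fancd2 and Fancm in 5 each. Fancc, a subunit of the core complex, read 4.35, 4.38, 4.50 and 4.13 with vehicle, 4.22, 4.04, 4.35 and 4.35 with TCDD, and 4.37, 4.60, 4.35, 4.31 and 4.35 with Cl-BBQ, close to the floor in all groups and with overlapping values.

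Of the mismatch repair members, 1 of 2 fell with each ligand, where 3.5% and 6.03% of all tested genes were called lower with TCDD and Cl-BBQ. A list of 2 is too short for this count to set it apart from all genes. Msh6, a subunit of the dimer that recognises mispaired bases, read 7.21, 7.31, 7.28 and 7.05 with vehicle, 6.76, 6.86, 6.84 and 6.94 with TCDD, and 6.76, 6.94, 6.83, 6.89 and 6.66 with Cl-BBQ. The vehicle arrays lay above all treated arrays, and the falls were 1.29-fold and 1.32-fold (limma, adjusted p = 0.026 and 0.0068). With TCDD the call did not survive the removal of any of 6 single arrays, and the adjusted p reached 0.085 for vehicle replicate 2. It was also lost without the filter on low values. Pms2, the endonuclease subunit that nicks the new strand, read 4.34, 4.39, 4.07 and 4.27 with vehicle, 4.61, 4.43, 4.30 and 4.64 with TCDD, and 4.40, 4.31, 4.20, 4.36 and 4.36 with Cl-BBQ. Its values stayed near the floor, with changes of 0.23 and 0.06 that did not pass (limma, adjusted p = 0.25 and 0.79).

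None of the 5 end-joining members was called with either ligand (limma), with 2 and 1 at an unadjusted p under 0.05 and medians of -0.30 and -0.19. Of all tested genes, 3.5% were called lower with TCDD and 6.03% with Cl-BBQ. At these shares, 0 of 5 does not set the end-joining genes apart from other genes. Xrcc4, the scaffold of the ligase, had overlapping groups, at 6.09, 6.07, 6.12 and 6.06 with vehicle, 6.22, 6.08, 5.98 and 6.08 with TCDD, and 5.83, 6.15, 6.16, 5.97 and 6.15 with Cl-BBQ. Its changes of 0.00 and -0.03 had 95% intervals of -0.20 to 0.21 and -0.23 to 0.16. Prkdc, the kinase that is recruited to Ku-bound ends, read 7.01, 6.78, 6.62 and 6.76 with vehicle, 6.62, 6.24, 6.40 and 6.66 with TCDD, and 6.47, 6.62, 6.06, 6.24 and 6.84 with Cl-BBQ. Its groups overlapped, and changes of -0.31 and -0.34 did not pass (limma, adjusted p = 0.33 and 0.18). The Ku subunit genes Xrcc5 (-0.27 and -0.20) and Xrcc6 (-0.31 and -0.19) did not pass (limma, adjusted p from 0.24 to 0.45). Lig4, the ligase, showed -0.30 with TCDD and 0.24 with Cl-BBQ, neither called (limma, adjusted p = 0.45 and 0.47). With TCDD the interval of Lig4 reached down to -0.69, that of Prkdc to -0.65 and that of Xrcc6 to -0.61.

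**Figure D2:**
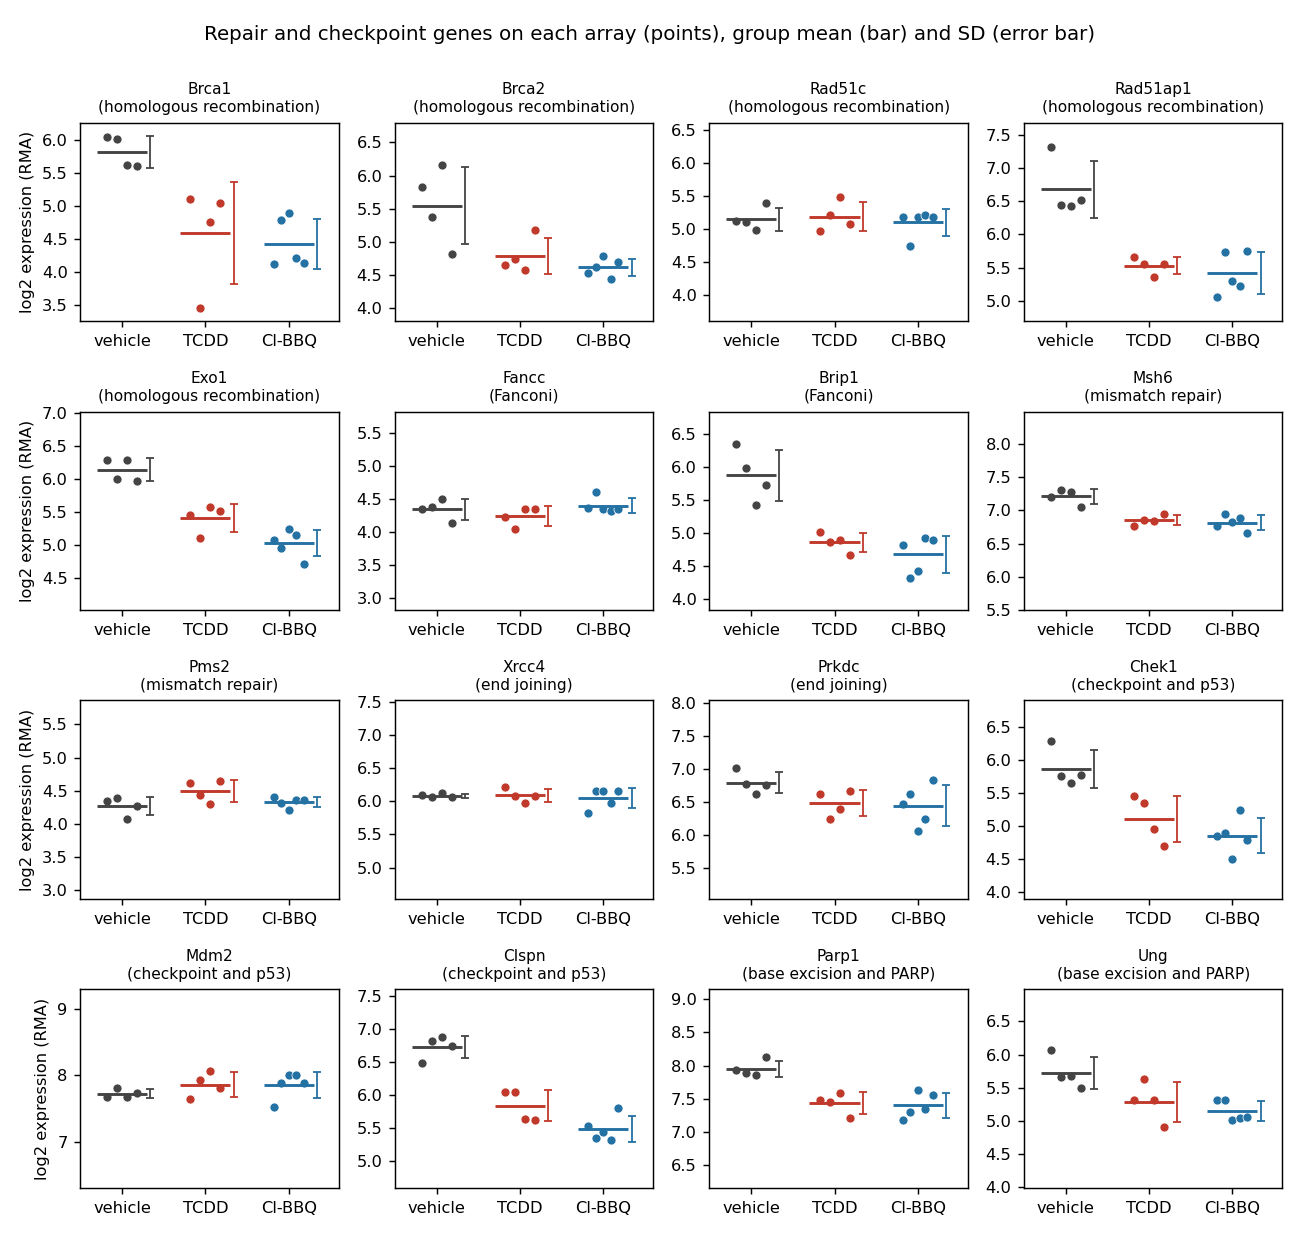
Log2 expression of 16 members on each array (points), with the group mean (bar) and SD (error bar) for 4 vehicle, 4 TCDD and 5 Cl-BBQ arrays; all panels span the same range of log2 units. Vehicle points lie above all treated points for Brca1, Rad51ap1, Exo1, Brip1, Clspn, Chek1, Msh6 and Parp1, while the groups overlap for Rad51c, Fancc, Pms2, Xrcc4, Prkdc and Mdm2.

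Among checkpoint genes, 3 of 7 tested members fell with each ligand, with medians of -0.50 and -0.63. The shares of all tested genes called lower were 3.5% with TCDD and 6.03% with Cl-BBQ. Clspn encodes Claspin, the adaptor through which ATR activates CHK1. It read 6.49, 6.81, 6.88 and 6.74 with vehicle, 6.04, 6.04, 5.64 and 5.63 with TCDD, and 5.54, 5.35, 5.44, 5.32 and 5.81 with Cl-BBQ. All treated arrays lay below all vehicle arrays, and it fell by 0.89 ± 0.14 (SE) with TCDD and 1.24 ± 0.13 with Cl-BBQ on the log2 scale (limma, adjusted p = 7.9e-04 and 1.4e-05). Chek1, which encodes CHK1, read 6.29, 5.76, 5.65 and 5.78 with vehicle, 5.45, 5.35, 4.96 and 4.70 with TCDD, and 4.85, 4.89, 4.51, 5.24 and 4.79 with Cl-BBQ. The vehicle arrays were again the highest, and the log2 changes were -0.76 ± 0.19 and -1.01 ± 0.18 (limma, adjusted p = 0.025 and 0.0013). The TCDD call of Chek1 was lost without vehicle replicate 1 or TCDD replicate 3 or 4, with an adjusted p of up to 0.082.

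The kinase genes at the head of the pathway were each called with 1 ligand. Atm, the sensor kinase of double-strand breaks, showed -0.50 ± 0.18 (SE) with TCDD and -0.63 ± 0.17 with Cl-BBQ, of which the second passed (limma, adjusted p = 0.13 and 0.025). Removing any of 5 single arrays ended that call, and the adjusted p reached 0.068 for vehicle replicate 4. Atr, the kinase of stalled forks, fell by 0.46 ± 0.11 with TCDD (limma, adjusted p = 0.019) and showed -0.30 ± 0.10 with Cl-BBQ (limma, adjusted p = 0.079). A further probe set of Atr gave -0.13 with TCDD and -0.26 with Cl-BBQ (limma, adjusted p = 0.78 and 0.42), and the TCDD call was lost with the mean of both sets (adjusted p = 0.22) and without TCDD replicate 2 or 3 (up to 0.065). The fall of Atr thus rests on 1 of its 2 probe sets.

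Chek2, the effector kinase of ATM, showed -0.46 with TCDD and -0.70 with Cl-BBQ, and Timeless, a protector of the replication fork, -0.62 and -0.52, none of which passed (limma, adjusted p from 0.052 to 0.33). Every TCDD array of Timeless lay below every vehicle array, as was so for 7.28% of all tested genes. Of 22 alternative settings, Timeless passed in 6 with TCDD and 2 with Cl-BBQ, and Chek2 in 0 and 6. Mdm2 encodes the ubiquitin ligase that degrades p53 and is itself a p53 target. It read 7.67, 7.81, 7.67 and 7.74 with vehicle, 7.64, 7.93, 8.07 and 7.81 with TCDD, and 7.53, 7.88, 8.01, 8.00 and 7.88 with Cl-BBQ. Its groups overlapped, and both changes were 0.14 (limma, adjusted p = 0.62 and 0.52).

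Parp1, which encodes the enzyme that marks strand breaks with poly(ADP-ribose), read 7.93, 7.88, 7.85 and 8.13 with vehicle, 7.48, 7.45, 7.59 and 7.21 with TCDD, and 7.17, 7.29, 7.63, 7.35 and 7.56 with Cl-BBQ. The vehicle arrays did not overlap either ligand group. It fell 1.43-fold and 1.46-fold (limma, adjusted p = 0.016 and 0.0045), the TCDD call being lost without vehicle replicate 4 or TCDD replicate 4 (up to 0.055). Ung, the glycosylase that removes uracil from DNA, read 6.07, 5.66, 5.67 and 5.50 with vehicle, 5.31, 5.63, 5.31 and 4.90 with TCDD, and 5.31, 5.31, 5.01, 5.04 and 5.05 with Cl-BBQ. It fell 1.49-fold with Cl-BBQ (limma, adjusted p = 0.017, and 0.064 without vehicle replicate 1), and with TCDD, where 1 array lay inside the vehicle range, the change of -0.43 did not pass (limma, adjusted p = 0.13).

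Companion genes of the same pathways were taken from lists chosen by name, also with earlier results of these data known. They were counted against the same background. With TCDD and Cl-BBQ, 3.5% and 6.03% of all tested genes were called lower, and 3.21% and 5.31% higher. Of 19 other recombination genes, 3 fell with TCDD and 7 with Cl-BBQ, with medians of -0.14 and -0.23. They were led by Hells, a chromatin remodeller (log2 change -1.31 and -1.54), Mms22l, a factor for replication-linked recombination (-0.80 and -1.06), and Gen1, a resolvase of recombination junctions (-0.99 and -1.12), called with both ligands. Of 12 other Fanconi genes, 1 and 3 fell, with medians of 0.02 and -0.01, among them Ube2t, the ubiquitin-conjugating enzyme of the pathway (-0.74 and -1.11, both called), and Usp1, the enzyme that removes the mark (-0.57 with Cl-BBQ). Of 17 other checkpoint genes, 3 and 6 fell, with medians of -0.24 and -0.21, including Tipin, the partner of Timeless (-0.98 and -1.10), Topbp1, the activator of ATR (-0.55 and -0.77), and Wee1, a kinase that restrains entry into mitosis (-0.77 and -1.08), all called with both. Of 8 other end-joining genes, 1 and 2 fell, with medians of -0.11 and -0.10, and the one called with both was Polq, the polymerase of the alternative, microhomology-based route (-1.09 and -1.21). No gene of these 4 lists was called higher (limma, 0 in each), and at an unadjusted p under 0.05 only 1 Fanconi gene was higher, with TCDD. In lists this short, a count of 0 or 1 does not set a list apart from all genes.

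The shares called in the other repair routes ranged from none to most of a short list. Beside them stand the 3.5% and 6.03% of all genes called lower with TCDD and Cl-BBQ, and the 3.21% and 5.31% called higher. None of 13 nucleotide excision genes, which remove bulky lesions, was called with TCDD or Cl-BBQ (limma, with 1 and 2 at an unadjusted p under 0.05), and their medians were -0.08 and 0.00. Of 15 other base excision genes, Neil3 (-0.74 and -0.75) and the flap nuclease gene Fen1 (-0.62 and -0.69) fell with both ligands, and Neil1, a glycosylase, rose with Cl-BBQ (0.52, limma, adjusted p = 0.021). Of 9 translesion genes, Rad18, a ubiquitin ligase acting on PCNA, fell with both (-0.69 and -0.93). Of 3 other mismatch repair genes, 0 were called with TCDD, with 1 at an unadjusted p under 0.05, and Msh3 and Pms1 fell with Cl-BBQ (-0.44 and -0.54).

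The p53 targets were counted against 3.21% and 5.31% of all genes called higher with TCDD and Cl-BBQ. Of 20 tested targets, 2 rose and 0 fell with TCDD, with medians of 0.06 and 0.05 for the ligands, and 3 rose and 1 fell with Cl-BBQ. Cdkn1a, the cell cycle inhibitor p21, went from 5.83 with vehicle to 6.88 with TCDD and 7.13 with Cl-BBQ (log2 change 1.05 ± 0.22 and 1.30 ± 0.20 SE, limma, adjusted p = 0.007 and 5.1e-04). Plk3, a stress-responsive kinase, rose by 0.77 and 0.81, and Btg2, an antiproliferative gene, by 0.55 with Cl-BBQ, while Ei24 fell by 0.47 with Cl-BBQ. The mean of the list was 6.03 to 6.16 over the vehicle arrays, 6.15 to 6.32 with TCDD and 6.23 to 6.31 with Cl-BBQ. All Cl-BBQ arrays thus lay above the vehicle arrays in this mean. Gene by gene, the change with Cl-BBQ was above 0 for 11 of the 20 tested targets and below 0 for 9. These genes also answer to signals other than p53.

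**Figure D3:**
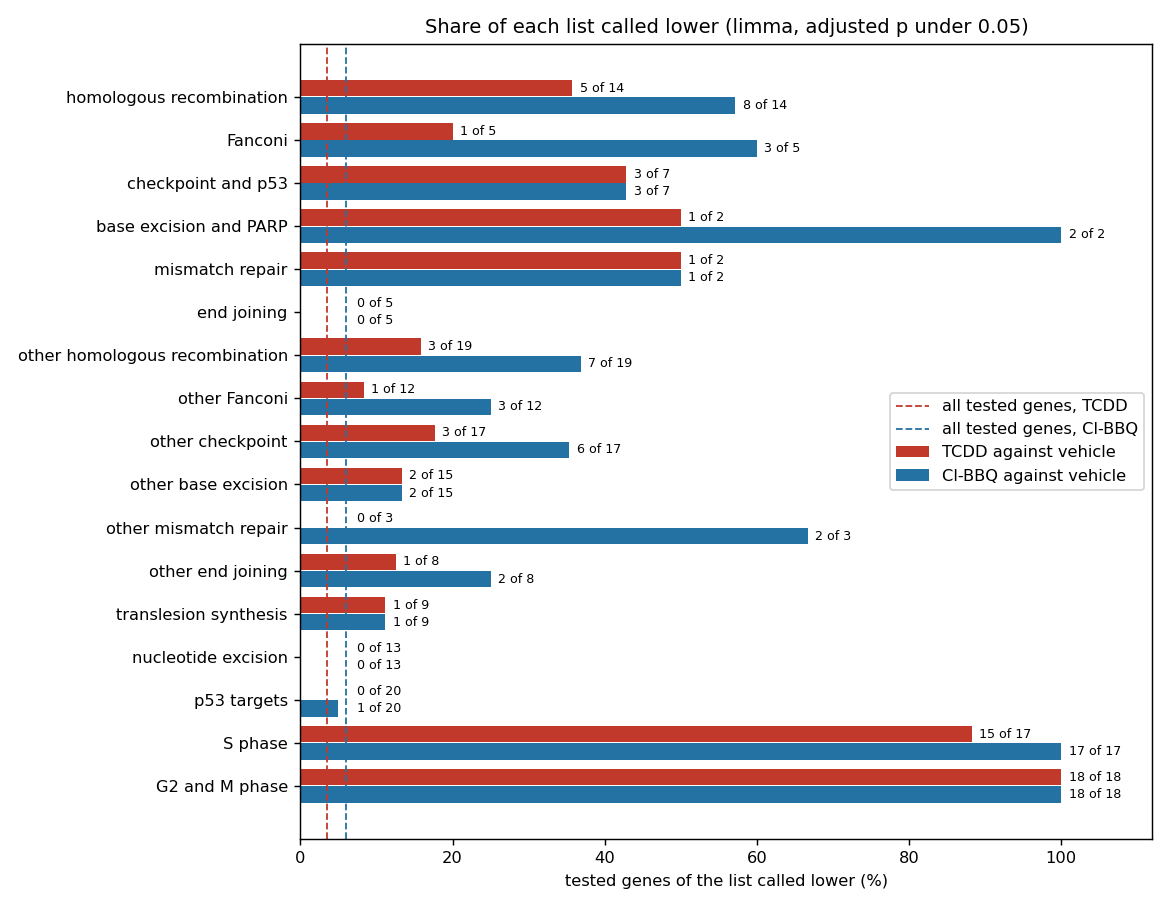
Share of tested genes called lower (%) in each list of members (upper 6 lists) and of companion genes, for TCDD (red) and Cl-BBQ (blue), with the count beside each bar. Dashed lines mark all tested genes, at 3.5% and 6.03%; homologous recombination reaches 5 and 8 of 14, while end joining and nucleotide excision have 0 called.

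Genes of the S, G2 and M phases fell on the same arrays as the repair genes. Among all tested genes, 3.5% were called lower with TCDD and 6.03% with Cl-BBQ. All 17 tested S phase genes fell with Cl-BBQ and 15 with TCDD, with medians of -1.01 and -0.95, and all 18 tested G2 and M phase genes fell with both, with medians of -1.54 and -1.22. The mean of the S phase list was 7.96 to 8.34 over the vehicle arrays, 7.09 to 7.37 with TCDD and 7.02 to 7.13 with Cl-BBQ. The mean of the 36 members was 5.96 to 6.18, 5.52 to 5.67 and 5.52 to 5.58. Within the vehicle group, replicate 1 had the highest mean of both lists and replicate 4 the lowest. The part of these cell cycle genes in the falls of the repair genes was not tested.

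**Figure D4:**
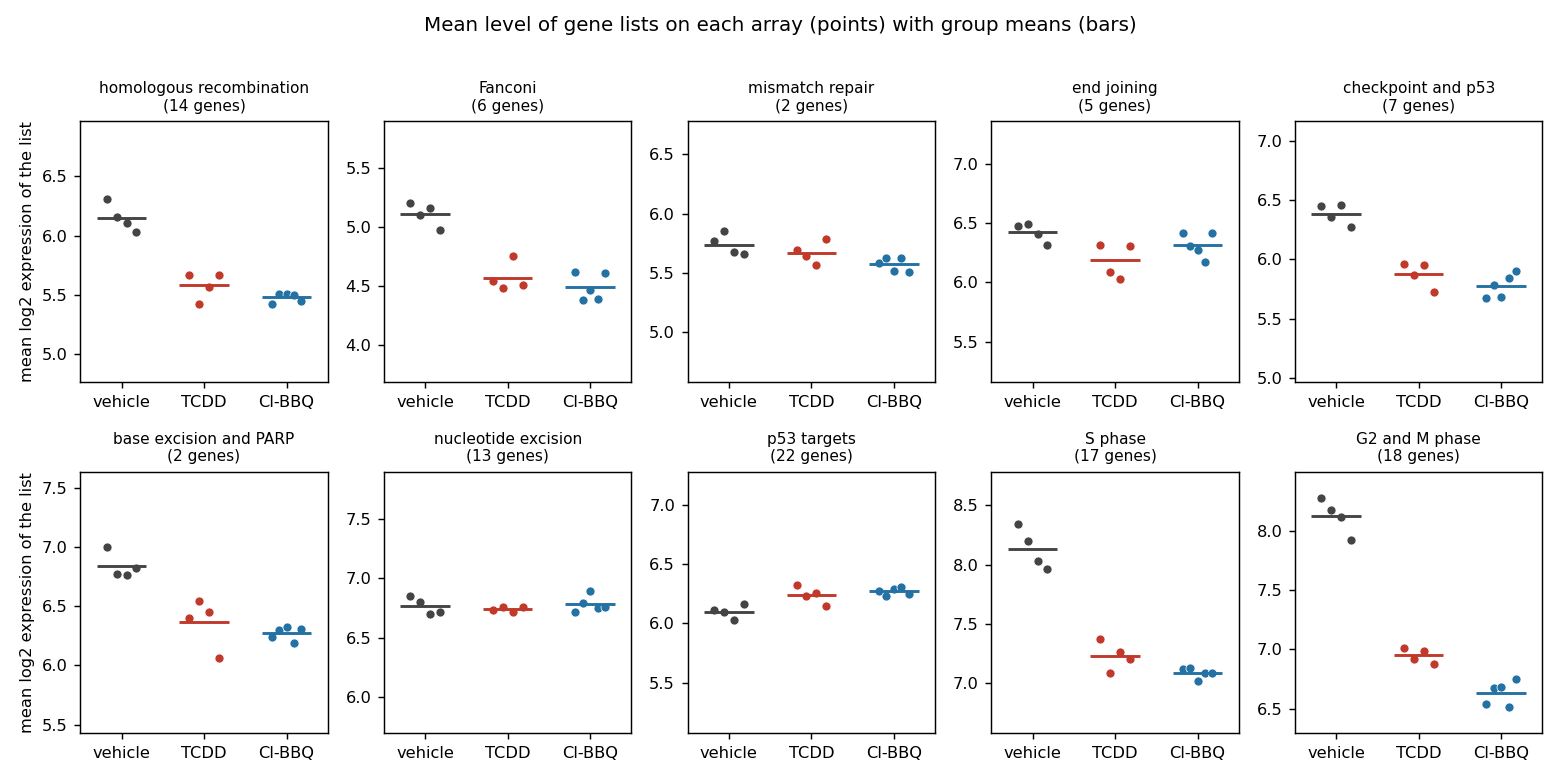
Mean log2 expression of each list on each array (points) with group means (bars), for the 6 roles of the members and 4 companion lists. All panels span the same range. Vehicle arrays lie above all treated arrays for homologous recombination, Fanconi, checkpoint, base excision and PARP, S phase, and G2 and M phase, and overlap with some of them for mismatch repair, end joining, nucleotide excision and p53 targets.

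Cl-BBQ was set directly against TCDD, with their different doses and schedules in mind. No member was called in either direction (limma, 0 of 35, smallest adjusted p = 0.57), and among all genes 0% were lower and 0.0236% higher with Cl-BBQ. At an unadjusted p under 0.05, Exo1 (-0.38 ± 0.13 SE) and Clspn (-0.35 ± 0.13) were lower and Lig4 (0.53 ± 0.17) was higher with Cl-BBQ (limma, adjusted p = 0.59, 0.66 and 0.57). Lig4 read 5.39, 4.72, 4.86 and 5.08 with TCDD and 6.11, 5.52, 5.40, 5.32 and 5.38 with Cl-BBQ, so that 1 TCDD array lay inside the Cl-BBQ range. The difference, Cl-BBQ minus TCDD, was below 0 for 24 of 35 members and for 6530 of all 12710 tested genes. The members were read from the same arrays, so this is not a count of independent results. For all 35 members the arrays of the ligands overlapped, as they did for most of the 12710 tested genes. Among all tested genes, every Cl-BBQ array lay below every TCDD array for 137 and above for 131. The 95% intervals of the differences reached from -0.78 (Brca1) to 0.90 (Lig4), and those of 23 members lay within 0.5 log2 units of 0, while those of the other 12 reached beyond.

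**Figure D5:**
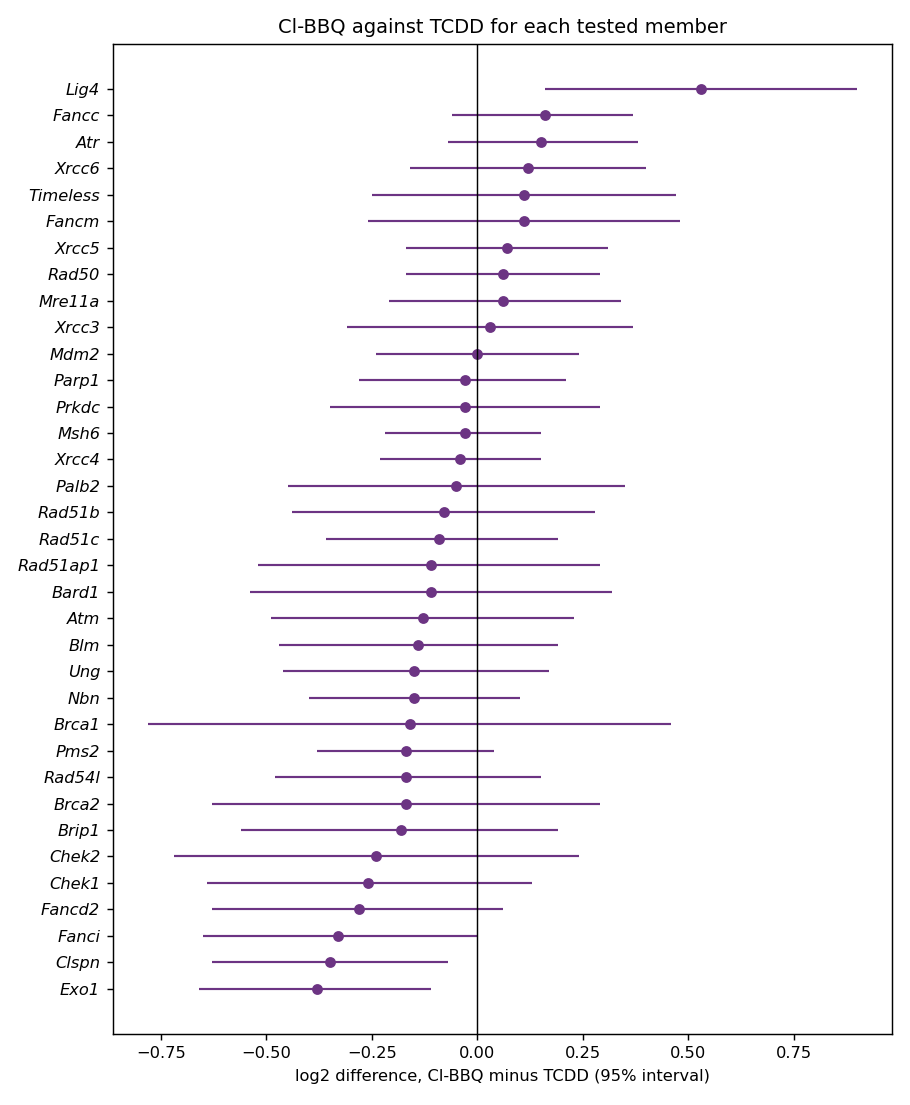
Log2 difference between Cl-BBQ and TCDD for each of the 35 tested members (points) with 95% intervals (lines), in order of size. The intervals of Exo1, Clspn and Lig4 leave out 0, and none of the 35 passed after adjustment over all genes.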

How the data were processed

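Expression was measured on 13 Affymetrix arrays. The deposited table holds log2 values that the authors made by RMA (background correction, quantile normalization and probe summary), per the submitters' processing notes. Of 41345 probe sets, 23521 carried 1 gene symbol in the platform annotation, 1814 several and 16010 none. Each of 22180 genes was represented by its probe set with the highest mean, and 12710 genes with at least 4 arrays above 4.31 were tested. One limma model (version 3.58.1, R 4.3.3) of 3 group means was fitted to all tested genes. Contrasts used moderated variances (10 residual and 4.22 prior degrees of freedom), two-sided tests and Benjamini-Hochberg adjustment within each contrast, with calls at an adjusted p under 0.05. The model was checked on simulated data. The number of arrays limits the precision. The p-values set the group differences against the spread between these arrays, which the labels do not tie to single mice. The members, roles and companion lists were chosen with earlier results of these data known. Per-array values are given for up to 16 members: in each role those with the smallest and largest adjusted p in Cl-BBQ against vehicle, then those with the largest change. Companion genes are named by smallest adjusted p, up to 4 per list. Alternatives covered normalization, filter, variance model, array weights, arrays fitted, probe sets, a replicate block and single arrays left out.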

Additional observations from a re-analysis of the deposited data

Results flagged for a closer look

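Groups of arrays were examined for an end value whose gap to the next was large against the range of the group (Dixon ratio). Of 108 groups examined for the members, 8 held 1 such array, where chance gives about 1 in 20. The gap can be small in log2 units, as for Atr. In the Cl-BBQ group, replicate 1 read 4.29 for Rad51b (nearest other array 4.86), 6.11 for Lig4 (nearest 5.52) and 7.53 for Mdm2 (nearest 7.88). Replicate 2 of that group read 4.74 for Rad51c (nearest 5.18) and 4.60 for Fancc (nearest 4.37). Replicate 3 read 5.65 for Atr (nearest 5.74), and replicate 4 read 7.43 for Nbn (nearest 7.00). In the vehicle group, replicate 1 read 7.32 for Rad51ap1 (nearest 6.52). Array weights estimated over all genes were lowest for Cl-BBQ replicate 1 (0.393) and vehicle replicate 3 (0.62).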

How the results depend on the processing

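The count of members lower was 11 with TCDD and 17 with Cl-BBQ. It was 8 to 14 and 13 to 18 with single arrays left out, lowest without vehicle replicate 1 in both. With a floor of 6, which left fewer members to test, it was 5 and 6. The other settings gave 10 to 16 and 16 to 18, among them 11 and 16 without vehicle replicate 3 and Cl-BBQ replicate 1, an alternative chosen after seeing the data. Higher calls and calls between the ligands were 0 in all settings run. Same-numbered arrays did not deviate together (correlations -0.06 to 0.08 over 12 pairs), and a replicate block gave 12 and 16, without the TCDD calls of Brca1 and Msh6 and the Cl-BBQ call of Bard1. Some changes near 0 turned sign, none of them called. Leaving out single arrays gave -0.06 to 0.12 (Rad51c) and -0.04 to 0.04 (Xrcc4) with TCDD, and with Cl-BBQ -0.11 to 0.04 (Rad51c), -0.01 to 0.11 (Fancc), -0.01 to 0.10 (Pms2) and -0.06 to 0.02 (Xrcc4). Without the pair of arrays of lowest weight Rad51c was -0.02 with TCDD, and Pms2 was -0.02 and Xrcc4 0.03 with Cl-BBQ. Xrcc4 was -0.01 with TCDD after array medians were made equal, and 0.01 with Cl-BBQ under array weights. The cause was not tested. Members near the floor (Fancc, Pms2, Palb2, and Brca1 on several treated arrays) are limited by signal over background.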
